A study of Mus musculus with 27 samples.

Results

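The genes of the mouse major histocompatibility complex (MHC, called H2 in the mouse) were followed in the liver across 3 levels of dietary iron. Members were all genes of the deposited RNA table whose name starts with H2-, together with B2m, Cd74 and Ciita, which gave 45 of 22552 genes. Of these, 31 belong to class I (the heavy chains, related pseudogenes and the light chain gene B2m) and 12 to class II (the chains, the peptide exchange factors, Cd74 and Ciita). The other 2, H2-Ke2 and H2-Ke6, carry the name for their position and encode no MHC chain.

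Livers came from male C57B/6J mice with no genetic change named in the labels, and 3 RNA libraries were made for each diet. Standard-iron diet (SID) held 50 mg carbonyl iron per kg, while that rich in iron (HID) contained 8.3 g and that poor in iron (LID) 0.9 mg. Feeding of SID and HID started at 6 weeks of age and that of LID at 3 weeks, so low iron and an earlier start cannot be told apart in any LID comparison. The sources used here do not give the feeding time. Whole liver holds immune cells beside hepatocytes. The authors combined the libraries of a diet into 1 FPKM value per gene (fragment counts scaled for transcript length and library size), so levels carry no SD and the depth is unknown. The column for HID is named GFE in the deposited table and was assigned by elimination, since NORM and LFE name the other diets.

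MHC class I molecules sit on nearly all cells and show peptides from inside the cell to CD8 T cells, with a heavy chain held by beta-2 microglobulin. Class II molecules are made mainly by dendritic cells, B cells and macrophages and show peptides taken up from outside to CD4 T cells. In the liver, hepatocytes carry class I and also secrete a class I protein, while class II is found on Kupffer cells, dendritic cells and sinusoidal endothelium. Interferon-gamma raises both classes, class II through the transactivator CIITA and class I through its relative NLRC5.

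The liver label was checked against 10 hepatocyte markers. Apoa1 stood between 8346 and 12243 FPKM and Ttr between 4745 and 5633 FPKM, while Alb was listed at 0 in all diets and Serpina1a in SID and LID. The status printed beside both in the deposited table is HIDATA. Of 8 tested hepatocyte markers 0 were called in any comparison. All 8 lay below the median tested gene in HID against SID (median log2 change -0.31) and 7 of 8 in LID against SID (-0.30). In each, 1 was lower at an unadjusted p below 0.05, beside 11.4% and 13% of all tested genes.

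RefSeq promoter sequences were available for 31 of the 45 members. 5 are shown because the class II chains H2-Aa and H2-Eb1 hold the same element as many class I genes, in the opposite direction. H2-Q10, the most abundant heavy chain gene, and B2m lack it. Printed are the 150 bases before the annotated start, read 5′ to 3′ in the direction of the gene on GRCm38.p6. Capitals mark matches to 4 motifs, each sought on both strands. ATTGG is the core that the factor NF-Y is known to bind. The Y box is longer, CTGATTGG, and contains that core. A cyclic AMP response core was sought only by the letters TGACGC. Other forms were not sought, among them tgacgtca, which stands unmarked in the H2-Aa sequence. The interferon response element was sought as a pair of GAAA blocks with 2 free bases between them. A gamma-activated site, TTCNNNGAA, was sought as a 5th motif.
H2-Aa, chr17:34287824-34287973, - strand: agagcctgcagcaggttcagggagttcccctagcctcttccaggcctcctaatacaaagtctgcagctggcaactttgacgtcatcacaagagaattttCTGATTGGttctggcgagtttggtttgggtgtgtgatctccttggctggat
H2-Eb1, chr17:34305717-34305866, + strand: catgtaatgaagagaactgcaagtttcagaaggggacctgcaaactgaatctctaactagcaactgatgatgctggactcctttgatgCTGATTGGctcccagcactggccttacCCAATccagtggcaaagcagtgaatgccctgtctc
H2-D1, chr17:35262944-35263093, + strand: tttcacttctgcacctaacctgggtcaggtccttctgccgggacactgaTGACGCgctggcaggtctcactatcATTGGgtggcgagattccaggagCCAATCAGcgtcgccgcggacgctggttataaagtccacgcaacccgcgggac
H2-Q10, chr17:35469939-35470088, + strand: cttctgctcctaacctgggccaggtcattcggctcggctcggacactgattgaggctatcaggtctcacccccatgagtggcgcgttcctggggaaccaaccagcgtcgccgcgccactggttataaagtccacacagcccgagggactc
B2m, chr2:122147537-122147686, + strand: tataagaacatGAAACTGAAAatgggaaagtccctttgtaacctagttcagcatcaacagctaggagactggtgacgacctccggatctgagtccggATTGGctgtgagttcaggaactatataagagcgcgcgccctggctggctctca

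In H2-Aa the Y box began 51 bases before the start and in H2-Eb1 62 bases before it, both as written. H2-D1 held the same letters on the reverse strand 53 bases before the start, with ATTGG as written and TGACGC further upstream. Windows of 250 bases before to 50 after the start were searched for 8 class II genes, without H2-Ab1 and Cd74. Of these 8, 4 held the Y box as written (H2-Aa, H2-Eb1, H2-Eb2 and H2-Oa) and 0 in reverse. Of the 22 class I genes with a window, 13 held it in reverse and 0 as written, among them H2-K1, H2-D1, H2-Q6, H2-Q7 and H2-T23. Over all 32851 RefSeq promoter windows, 4.1% held the Y box in either direction and 37.4% held ATTGG. That core lay in 8 of 8 class II and 19 of 22 class I genes. The window of H2-Q10 held none of the 5 motifs, although 87.3% of its 291 bases that paired with the H2-D1 window were identical. TGACGC lay in H2-K1, H2-D1 and H2-M3 (7.4% of all windows), and the interferon response element in B2m, H2-T22 and H2-T23 (3.44% of all windows). TTCNNNGAA lay in H2-M3, H2-M11 and H2-DMb2 (8.3% of all windows). A match says that the letters are there, not that a factor binds.

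**Figure D1:**
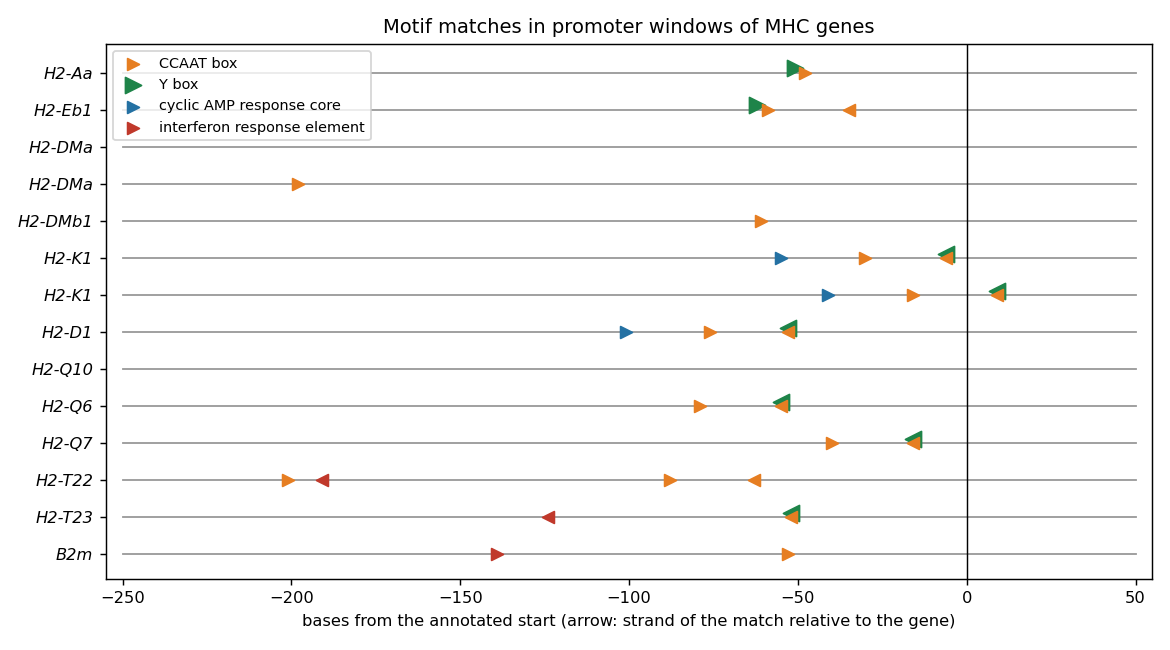
Motif matches in the promoter windows of 12 members, by bases from the annotated start (vertical line), with 1 grey line per annotated start. Arrows pointing right are matches as written in the direction of the gene and arrows pointing left are matches on the reverse strand; the Y box points right in H2-Aa and H2-Eb1 and left in H2-K1, H2-D1, H2-Q6, H2-Q7 and H2-T23.

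Class I levels were led by few genes. B2m, the light chain of all class I molecules, stood at 2099.7 FPKM in SID, 2433 in HID and 1983 in LID. H2-Q10, which encodes a secreted class I protein made mainly by the liver, stood at 1398 FPKM in SID, 1324 in HID and 898 in LID. The classical heavy chain gene H2-K1 stood at 774 FPKM in SID, 775 in HID and 511 in LID. LID was the lowest diet for all 3, and SID and HID were close for H2-Q10 and H2-K1.

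H2-D1, the other classical heavy chain gene, stood at 254 FPKM in SID, 312 in HID and 202 in LID. H2-T23, which encodes Qa-1, the molecule read by the NKG2A receptor of natural killer cells, stood at 109.97 FPKM in SID, 107 in HID and 83.7 in LID. H2-Q10, H2-K1 and H2-D1 together made up 90% of the summed class I heavy chain FPKM in SID, 88.6% in HID and 87.3% in LID. H2-Q10 alone took 51.9%, 48.7% and 48.7%. The heavy chain sum was 1.28 times the level of B2m in SID, 1.12 times in HID and 0.931 times in LID.

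The remaining class I genes lay below 100 FPKM. H2-T9 stood at 40.9 FPKM in SID, 54.5 in HID and 32.7 in LID. H2-T22, whose product is bound by gamma delta T cell receptors, stood at 9.35, 13.5 and 7.09 FPKM in the same order of diets. H2-T10, its close relative and a transcribed pseudogene in RefSeq, stood at 1.14, 2.35 and 1.02 FPKM. All 3 were highest in HID and lowest in LID. How reads were divided between close relatives was not tested, so these values may not be independent. H2-T9 had no match in RefSeq.

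The Qa-2 genes H2-Q6 to H2-Q9, which encode membrane-anchored class Ib proteins, are known as near copies of each other. How reads were divided among them was not tested, so each single value is uncertain. The promoter windows of H2-Q6 and H2-Q7 were identical at 97.7% of 260 paired bases, which says nothing of their transcripts. H2-Q7 stood at 25.4 FPKM in SID, 38.9 in HID and 27.6 in LID. H2-Q6 stood at 7.92, 9.77 and 7.975 FPKM in the same order. H2-Q8 stood at 12.6, 12.9 and 15.02 FPKM, and was one of the 2 tested class I genes that were highest in LID. H2-Q9 stood at 29.7, 35.7 and 22.7 FPKM but carries the status LOWDATA with all p-values at 1 in the authors' deposited table, so it was not tested.

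H2-Gs10, a synonym of H2-Q4 in RefSeq, stood at 18.4 FPKM in SID, 22.9 in HID and 19.2 in LID. H2-K2, a transcribed pseudogene in RefSeq, stood at 3.66, 5.29 and 4.28 FPKM. H2-Q1 stood at 7.62, 3.13 and 10.4 FPKM. It had the widest spread between diets among tested class I genes, and it was the only 1 of the 14 lowest in HID.

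Of the 31 class I genes, 14 were tested, meaning that they averaged 1 FPKM or more and that the authors' deposited table gives them an adjusted p below 1. H2-M3, which presents formylated bacterial peptides, lay just below that level at 0.839 FPKM in SID, 1.07 in HID and 1.05 in LID. H2-Q2 lay there too, at 1.21 FPKM in SID, 0.711 in HID and 0.995 in LID. H2-T24 stood below 0.9 FPKM and H2-Bl below 0.4 in every diet. The other 12 class I genes were below 0.1 FPKM in all diets, and 4 of them were listed at 0. They include the H2-M10 genes, known from the vomeronasal organ, and H2-T3, the thymus leukemia antigen of gut epithelium.

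Class II levels were far lower. Cd74, the invariant chain that guides class II molecules to the endosome, stood at 43.8 FPKM in SID, 37.05 in HID and 25.5 in LID. H2-Aa, the alpha chain of the I-A molecule, stood at 22.1 FPKM in SID, 22.9 in HID and 14.2 in LID. H2-Ab1, its beta chain, stood at 18.8, 17.3 and 10.8 FPKM in the same order. All 3 were lowest in LID.

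H2-Eb1, the beta chain of the I-E molecule, stood at 9.002 FPKM in SID, 7.696 in HID and 5.26 in LID. Its partner H2-Ea-ps was listed at 0 in all diets; C57BL/6 mice are known to lack I-E because of a deletion in the alpha chain gene. H2-DMa and H2-DMb1 form the DM molecule, which exchanges peptides in the class II groove. H2-DMa stood at 2.101 FPKM in SID, 1.93 in HID and 1.75 in LID. H2-DMb1 stood at 2.04, 1.74 and 1.39 FPKM. H2-DMb2 and the DO genes H2-Oa and H2-Ob, whose product holds DM back, stood below 0.3 FPKM and H2-Eb2 below 0.03. Ciita stood at 0.115 FPKM in SID, 0.0657 in HID and 0.0811 in LID, too low to be tested.

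Class II transcripts were also set against Cd74 within each diet. H2-Eb1 stood at 0.205 times the FPKM of Cd74 in SID, 0.208 in HID and 0.206 in LID. H2-Ab1 stood at 0.43, 0.467 and 0.423 times Cd74, and H2-Aa at 0.503, 0.618 and 0.556 times. The summed FPKM of class I heavy chains was 49.4 times that of the class II chains and exchange factors in SID, 52.2 times in HID and 54.3 times in LID.

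**Figure D2:**
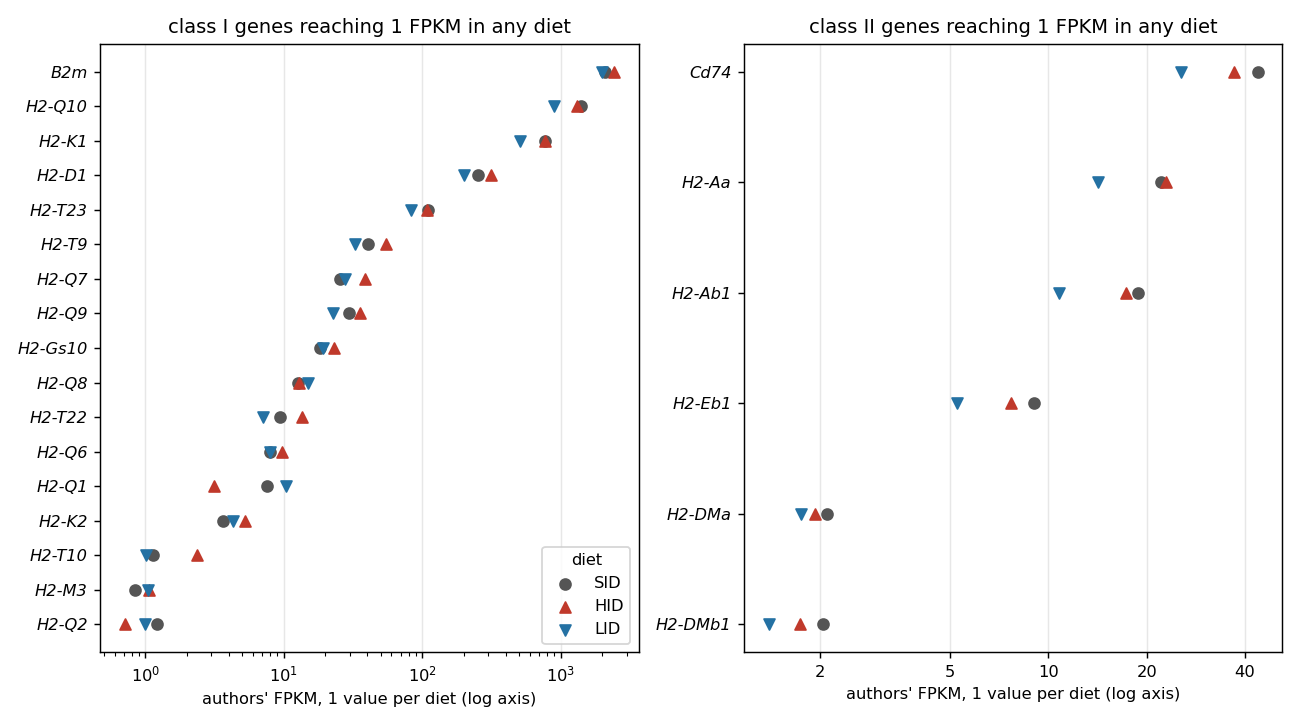
The authors' FPKM of 17 class I (left) and 6 class II (right) genes that reached 1 FPKM in any diet, on log axes of different range. Each symbol is 1 combined value per diet (circle SID, triangle up HID, triangle down LID); the LID symbol lies farthest left for all 6 class II genes and for B2m, H2-Q10, H2-K1, H2-D1 and H2-T23.

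LID was set against SID to see how these genes stand when iron is scarce. The class II genes Cd74, H2-Ab1 and H2-Eb1 fell. The adjusted p in the authors' deposited table was 0.0137 for Cd74, 0.0185 for H2-Ab1 and 0.0455 for H2-Eb1, with LID at 0.581, 0.572 and 0.584 times the SID level. H2-Aa stood at 0.642 times its SID level and was not called (adjusted p 0.0856, from the authors' deposited table). The sources used here do not name the test behind these p-values.

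Of 6 tested class II genes, 3 were called lower and 0 higher at an adjusted p below 0.05. Of all 9482 tested genes, 3.31% were called lower and 1.57% higher. The median log2 change of the 6 was -0.51 relative to the median of all tested genes, which itself lay at -0.13. At an unadjusted p below 0.05 the count was 4 lower, beside 13% of all tested genes. Changes are differences of log2(FPKM + 1), which understates those of low genes such as H2-DMa (-0.04) and H2-DMb1 (-0.21).

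No class I gene was called. Of 14 tested, 0 were called and 0 had an unadjusted p below 0.05 in the authors' deposited table. At that level 4.02% of all tested genes were higher and 13% lower. Yet LID stood at 0.643 times SID for H2-Q10 and at 0.66 times for H2-K1, ratios like that of H2-Aa. Their p-values before adjustment in the authors' deposited table were 0.0826 and 0.0592, and that of H2-T23, at 0.761 times, was 0.0684. H2-D1, H2-T9 and H2-T22 stood at 0.796, 0.799 and 0.758 times the SID level, and B2m at 0.945 times. H2-Q6, H2-Q7, H2-Q8, H2-Gs10, H2-K2 and H2-Q1 stood above it, between 1.01 times for H2-Q6 and 1.37 times for H2-Q1. The median class I change was 0.05 on the log2 scale after centring on all tested genes and -0.08 without that centring, so its sign depended on the scale. The summed heavy chain FPKM stood at 0.685 times SID, carried by the most abundant genes. The summed hepatocyte markers stood at 0.752 times SID. Apoa1 made up most of that sum, at 12243 FPKM in SID and 8602 in LID. Its unadjusted p in the authors' deposited table was 0.486. Alb and Serpina1a entered the sum at 0 in both diets. Of the 8 tested markers, 7 lay below the median tested gene, while Cps1 stood at 325 FPKM against 294 in SID. Hnf4a, a hepatocyte transcription factor gene, stood at 0.701 times SID (unadjusted p 0.0462 in the authors' deposited table, not called). The part of these changes in the class I values was not tested.

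Among the 639 tested genes with a mean of at least 100 FPKM, 5.95% were called lower and 1.88% higher. H2-Q10, H2-K1, H2-D1, H2-T23 and B2m are in that range. Whether class I and class II differed in their response was not tested, because values per library are needed for it.

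**Figure D3:**
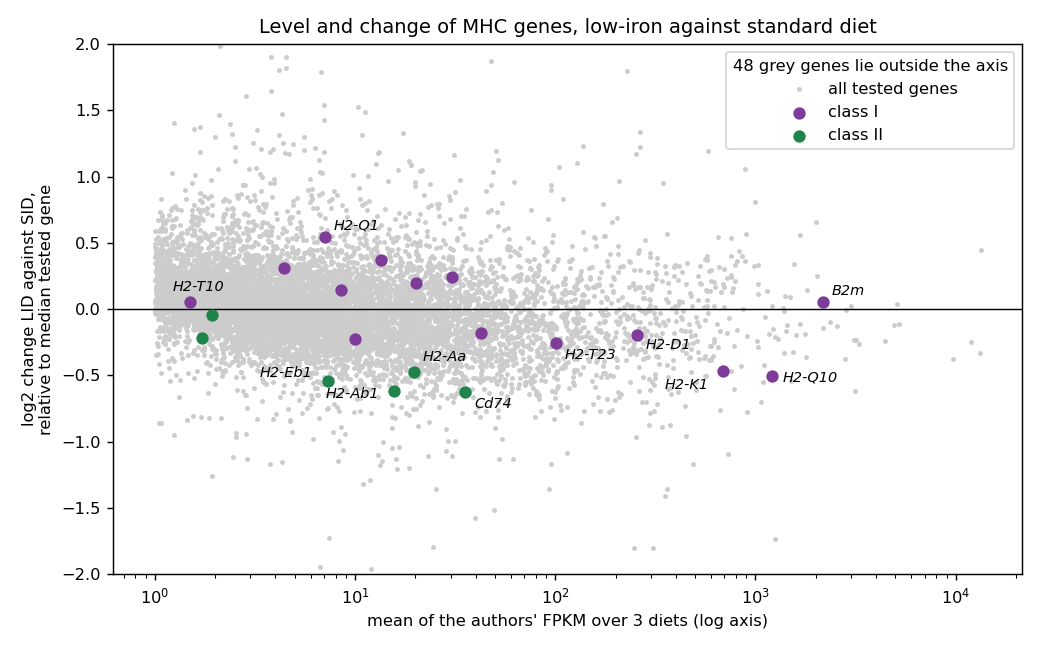
Level against log2 change, LID against SID, for 9482 tested genes (grey), 14 class I genes (purple) and 6 class II genes (green), with the change relative to the median tested gene. H2-K1 and H2-Q10 lie at -0.47 and -0.50, near H2-Aa at -0.47, while B2m lies at 0.05.

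Markers of cells that carry class II were examined beside this. In a bulk sample, fewer cells of a type and less RNA per cell cannot be told apart. Of 16 macrophage and Kupffer cell markers 15 were in the table and tested, of which 7 rose in LID and 0 fell, beside 1.57% of all tested genes called higher, and their median log2 change was 0.75. The scavenger receptor gene Marco rose from 3.68 to 11.4 FPKM, Lyz2 (lysozyme) from 30.4 to 61.4, the complement receptor gene Vsig4 from 11.4 to 23.2 and Timd4, a receptor for dying cells, from 1.85 to 3.68. The summed FPKM of the 15 markers was 221 in SID, 331 in HID and 368 in LID. The sum of H2-Aa, H2-Ab1, H2-Eb1 and Cd74 was 0.424 times the macrophage sum in SID, 0.257 times in HID and 0.151 times in LID.

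Dendritic cell markers were low, with 1 of 11 tested. Cd83 stood at 0.702 FPKM in SID, 1.29 in HID and 1.60 in LID, with no call. Their sum was 2.94 FPKM in SID, 4.01 in HID and 4.73 in LID. None, 0 of 11, was at 0 in all diets. Of the B cell and plasma cell list 9 of 10 were in the table and 1 was tested. This was Igj, the joining chain of secreted antibodies, at 1.199 FPKM in SID, 1.31 in HID and 2.15 in LID (not called). The B cell sum was 2.95, 3.29 and 4.29 FPKM. The sums were not shared by all markers. In LID, 5 of the 11 dendritic cell markers (Cd209a, Clec9a, Flt3, Siglech and Xcr1) stood below SID, each under 0.5 FPKM in all diets, and the rise of the sum came mainly from Cd83, Fscn1 (0.715 to 1.35 FPKM) and Batf3 (0.322 to 0.601 FPKM). Of the 9 B cell markers, Cd79a and Fcer2a stood below SID in LID, and Igj made up most of the difference in the sum.

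Of all tested genes, 1.57% were called higher in LID and 3.31% lower. Of the 6 sinusoidal endothelium markers, Lyve1 (2.34 to 4.27 FPKM) and Stab2 (2.12 to 3.45 FPKM) rose in LID and 0 fell. Their sum stood lower in LID, at 70.9 FPKM against 84.4 in SID. Clec4g, the most abundant marker, stood at 52.97 FPKM in SID and 39.2 in LID (unadjusted p 0.0333 in the authors' deposited table, not called). Fcgr2b stood at 20.4 and 16.2 FPKM (not called). The ratio of the sums, 0.841, is not centred, and the median tested gene had an FPKM ratio of 0.891. The part of these cell types in the class II result was not tested.

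For genes of antigen processing and MHC control, calls in LID against SID stand beside 1.57% of all tested genes called higher and 3.31% lower. Ctss, the cathepsin that trims the invariant chain in antigen-presenting cells, rose from 18.5 to 29.9 FPKM, and it was the only 1 of 9 tested class II processing genes called. The list named 11 genes, of which 9 were in the table, and their median log2 change was 0.02. Among 14 MHC transcription regulators 1 fell, Irf2, an interferon regulatory factor, from 14.6 to 9.31 FPKM, and 0 rose. Of the 13 class I peptide loading genes 0 were called, with 1 lower at an unadjusted p below 0.05 (13% of all tested genes). That gene was Pdia3, the disulfide isomerase of the loading complex, at 139 against 206 FPKM, followed by the chaperone gene Calr at 242 against 345. Of 10 tested interferon-gamma targets, the guanylate-binding protein genes Gbp3 (2.096 to 4.57 FPKM) and Gbp7 (1.896 to 3.16 FPKM) rose and 0 fell.

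**Figure D4:**
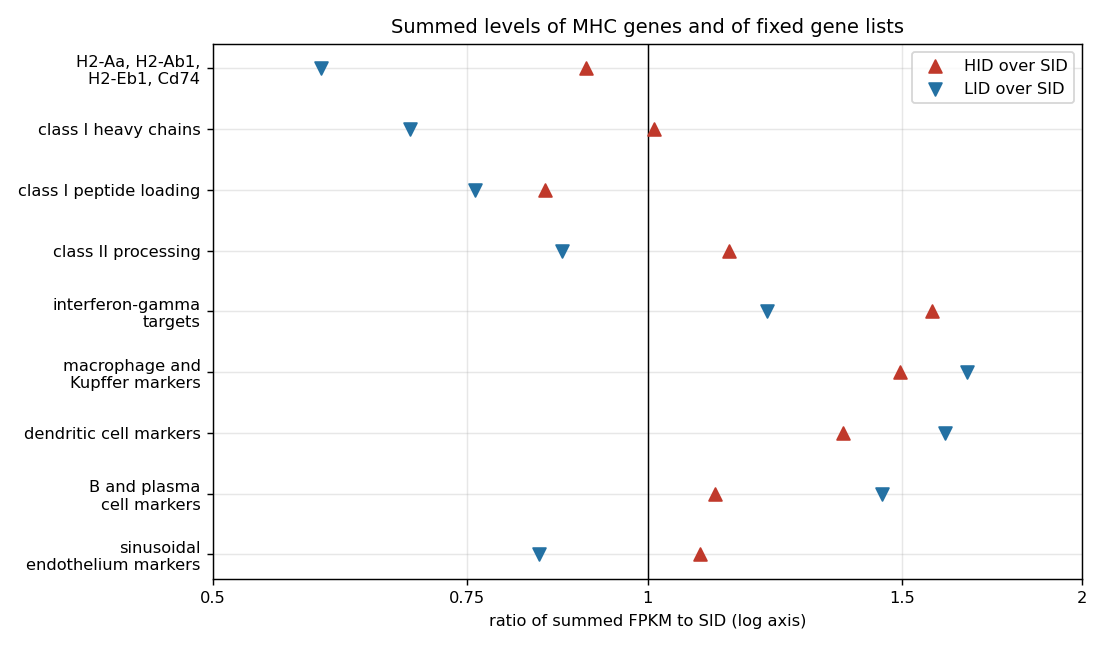
Ratio of summed FPKM to SID (log axis) in HID (triangles up) and LID (triangles down) for MHC genes and lists of related genes and cell markers, each a ratio of 2 combined values with no error. In LID the 4 class II genes lie at 0.594, class I heavy chains at 0.685 and sinusoidal endothelium markers at 0.841. Macrophage and Kupffer markers lie at 1.66 in LID and interferon-gamma targets at 1.21. Dendritic cell markers lie at 1.61 there, with 5 of the 11 below SID. Ratios are not centred, and the median tested gene had an FPKM ratio to SID of 0.891 in LID and 0.942 in HID.

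HID was set against SID to see how these genes stand under iron loading. Neither class gave a call. Of 14 tested class I genes 0 were called, beside 2.82% of all 9473 tested genes called higher and 3.84% lower, and 1 was higher at an unadjusted p below 0.05 (6.63% of all tested genes). That gene was H2-T10, at 2.07 times its SID level, and the authors' deposited table gives it an adjusted p of 0.0576. It passed when p-values were adjusted within the comparison alone (adjusted p = 0.0428), a rule by which 3.09% of all tested genes were higher and 4.32% lower. Among tested genes of at least 100 FPKM, 1.57% were called higher and 5.18% lower.

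The median class I change was 0.35 on the log2 scale after centring and 0.28 without it. H2-Q7 stood at 1.53 times its SID level, H2-K2 at 1.44, H2-T22 at 1.44 and H2-T9 at 1.33 times. Their adjusted p-values in the authors' deposited table were 0.446, 0.381, 0.765 and 0.485. Among the most abundant genes, H2-Q10, H2-K1 and H2-T23 stood at 0.947, 1.002 and 0.977 times, while H2-D1 stood at 1.23 and B2m at 1.16 times. H2-Q1 stood at 0.411 times with an unadjusted p of 0.569 in the authors' deposited table, so the widest fold among class I genes went with a high p.

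Of 6 tested class II genes 0 were called and 0 had an unadjusted p below 0.05, with a median log2 change of -0.06. H2-Aa stood at 1.04 times its SID level, H2-Ab1 at 0.917, H2-Eb1 at 0.855 and Cd74 at 0.845 times. Macrophage markers rose here as well, 3 of 15 with 0 lower (Lyz2, Vsig4 and Cd5l, the last from 25.5 to 40.9 FPKM). Of all tested genes, 2.82% were called higher.

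Nlrc5, the class I transactivator, rose from 1.06 to 1.87 FPKM in HID, the only 1 of 14 regulators called. Interferon-gamma targets rose in 4 of 10 cases and fell in 0, beside 2.82% of all tested genes called higher and 3.84% lower. The chemokine gene Cxcl10 went from 1.45 to 4.76 FPKM, Gbp7 from 1.896 to 5.33, Gbp3 from 2.096 to 5.22 and Gbp2 from 2.58 to 5.17. Class I peptide loading genes had 0 of 13 called, with Tapbp (tapasin, which bridges class I to the peptide transporter) at 23.7 against 17.7 FPKM. Calr stood at 234 against 345 FPKM, the only 1 of the 13 lower at an unadjusted p below 0.05 (11.4% of all tested genes). Class II processing genes had 0 of 9 called, with Ctss at 29.0 against 18.5 FPKM (adjusted p 0.0536, from the authors' deposited table). Like H2-T10, Ctss passed when p-values were adjusted within the comparison (adjusted p = 0.0394).

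HID and LID were also compared directly. All 3 comparisons share diets with each other, so they are not independent. Of 6 tested class II genes 0 were called, beside 2.1% of all 9490 tested genes called higher and 1.84% lower. With p-values adjusted within the comparison these shares were 1.85% and 1.71%, and among tested genes of at least 100 FPKM they were 2.19% and 2.35%. At an unadjusted p below 0.05, 3 were higher in HID (6.03% of all tested genes) and 0 lower (4.18%). These were H2-Aa at 1.62 times, H2-Ab1 at 1.604 times and Cd74 at 1.45 times the LID level, with adjusted p-values of 0.111, 0.137 and 0.317 in the authors' deposited table. The class II median log2 change was 0.44.

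Class I again had 0 of 14 called, beside 2.1% of all tested genes called higher and 1.84% lower. At an unadjusted p below 0.05, 2 were higher in HID (6.03% of all tested genes). These were H2-T10 at 2.31 times and H2-T9 at 1.67 times the LID level, with adjusted p-values of 0.109 and 0.135 in the authors' deposited table. Whether these genes share reads was not tested. H2-T22 stood at 1.9, H2-D1 at 1.54, H2-K1 at 1.52 and H2-Q10 at 1.47 times the LID level. The class I median log2 change was 0.36, and H2-Q1 (0.299 times) and H2-Q8 (0.86 times) were the 2 tested class I genes that stood lower in HID. Cxcl10 was the only 1 of 10 interferon-gamma targets called, at 4.76 against 1.15 FPKM, beside 2.1% of all tested genes called higher. Of the 13 peptide loading genes, 9 processing genes and 14 regulators 0 were called. In each list 1 was higher at an unadjusted p below 0.05 (Tapbp, Ctsz and Nlrc5), beside 6.03% of all tested genes.

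**Figure D5:**
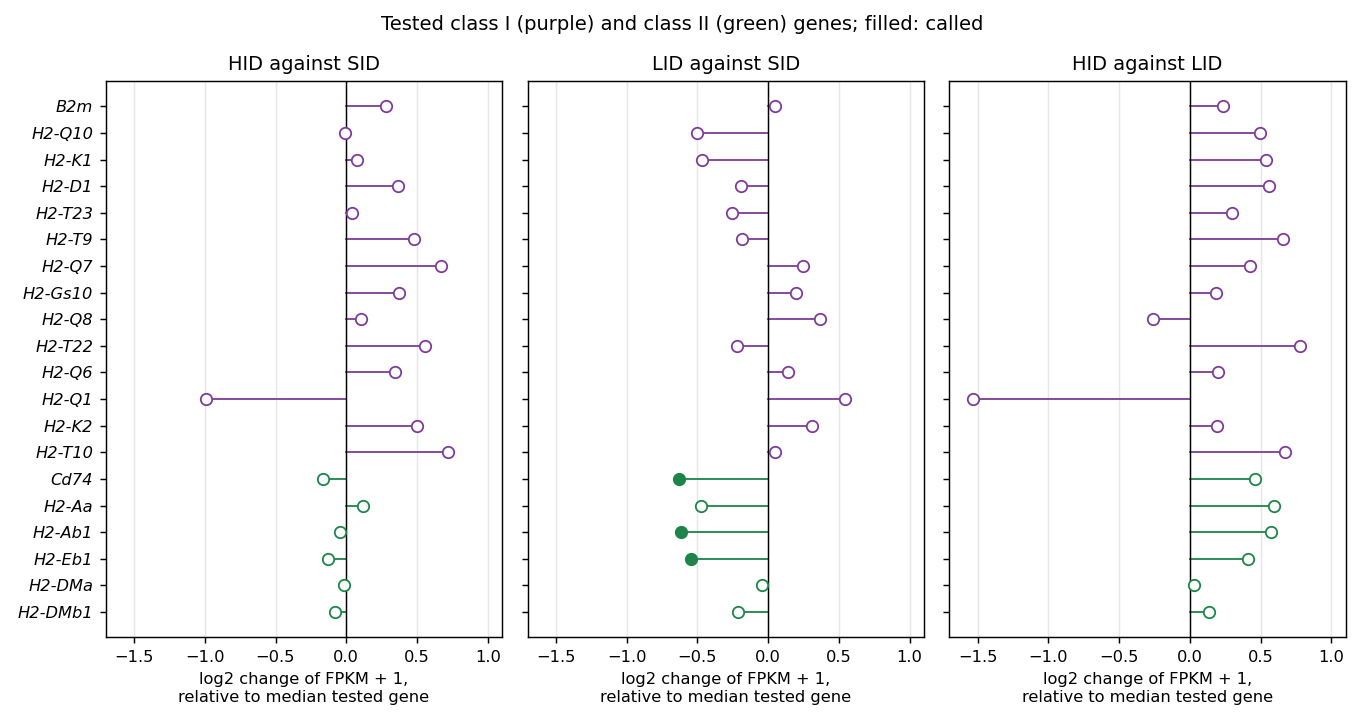
Log2 change of 14 class I (purple) and 6 class II (green) genes in the 3 comparisons, relative to the median tested gene; filled circles were called at an adjusted p below 0.05. The filled circles are Cd74, H2-Ab1 and H2-Eb1 in LID against SID, at -0.63, -0.62 and -0.54.

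The 2 members that encode no MHC chain were lower in both diets than in SID without a call. H2-Ke6, a steroid dehydrogenase gene also called Hsd17b8, stood at 77.6 FPKM in SID, 52.4 in HID and 55.97 in LID. Its unadjusted p in the authors' deposited table was 0.00707 for HID and 0.0211 for LID, with adjusted p-values of 0.104 and 0.214. H2-Ke2, the prefoldin subunit gene Pfdn6 in RefSeq, stood at 34.97, 27.8 and 25.99 FPKM. Of the 44 members that matched RefSeq, 41 lie on chromosome 17, with B2m on chromosome 2, Ciita on 16 and Cd74 on 18.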

How the data were processed

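RNA was sequenced from 3 libraries per diet (TruSeq, per the labels' protocols) and processed with TopHat and Cufflinks 2.2.1 on mm9, per the submitters' processing notes. The FPKM values in the deposited table are 1 combined value per gene and diet. No unit stands in the file headers, so it follows from the software and the range of values. The p-value and adjusted p-value of each comparison are deposited by the authors, per the file headers. The deposited adjusted p-values equalled a Benjamini-Hochberg adjustment over the 34481 tests of the 3 comparisons together (largest gap 2.69e-06). Their test is unnamed in the sources used here.

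A gene counted as tested if it averaged 1 FPKM or more with a deposited adjusted p below 1, and as called below 0.05. Changes are differences of log2(FPKM + 1), a pseudocount of 1 FPKM, relative to the median tested gene. Ratios of FPKM and of summed FPKM are not centred. The median tested gene had an FPKM ratio of 0.891 for LID over SID, 0.942 for HID over SID and 1.055 for HID over LID. The planned limma fit needs values per library and could not be made. The methylation table holds no MHC gene and was not used. Members and lists were chosen with earlier results of these data known. The rule named every member with a mean of at least 1 FPKM, and up to 4 called genes of each other list or the 2 with the smallest p. It also named members that reached 1 FPKM in 1 diet. Ciita, other low members, some unchanged marker genes and a few list genes were named outside it, after their values were seen. Promoter windows are from RefSeq (GRCm38.p6, matched by symbol) and were searched and aligned with Biopython 1.88. Calculations used pandas 2.3.3 and numpy 2.4.6 and were tested on simulated data. Proteins were not compared. Alternatives were other filters, pseudocounts, scalings and adjustment within a comparison.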

Additional observations from a re-analysis of the deposited data

How the results depend on the processing

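For the members' counts and medians, 52 alternative values were close and 5 were not close to those reported, which for a median means within 0.1 on the log2 scale and for a count within 1.5 times. Part of this was fixed in advance. The deposited p-values were the same in all alternatives, a count of 0 cannot fall under a stricter filter, and counts over all members largely repeat those of the classes. With p-values adjusted within the comparison, 1 class I gene (H2-T10) and so 1 of all members was called in HID against SID in place of 0, while the 3 class II calls in LID against SID were again 3. Without centring on the median tested gene, the median log2 change in LID against SID was -0.08 for class I, which turned its sign, and -0.64 for class II. Without the filter on low values the class I median in HID against LID was 0.25. No paired analysis was possible because the deposited table holds 1 combined value per diet, and leaving out a library could not be done for the same reason. Read depth is unknown, so members below 0.1 FPKM cannot be ranked, and class I genes with near copies may share reads, which the FPKM cannot show.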

Other observations

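Among genes related to class I by structure but outside the H2- names, 1 of 6 tested rose in HID. The share of all tested genes called higher in HID was 2.82% against SID and 2.1% against LID. Raet1d, which encodes a ligand of the activating receptor NKG2D on natural killer cells, rose from 3.13 FPKM in SID to 14.1 in HID and stood at 3.64 in LID. Its adjusted p in the authors' deposited table was 5.79e-11 for HID against SID and 5.94e-07 for HID against LID. It was the only 1 of 6 tested genes of this list called in either comparison, and 0 were called in LID against SID. Azgp1, a secreted class I-like protein gene, stood at 1418 FPKM in SID, 1382 in HID and 1106 in LID, a level like that of H2-Q10. Cd1d1, which presents lipids to natural killer T cells, stood at 93.4, 103 and 62.5 FPKM. Mr1, which presents vitamin B metabolites, stood at 1.65, 2.02 and 2.91 FPKM, and like Cd1d1 it was not called.

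Of the T and NK cell list, 10 of 11 genes were in the table and 1 was tested, Gzma, at 0.746 FPKM in SID, 1.94 in HID and 0.89 in LID, with no call. Cd4 averaged less than 1 FPKM and so was not counted as tested. It stood at 0.428 FPKM in SID, 0.0908 in HID and 0.34 in LID, with an adjusted p of 0.0172 for HID against SID in the authors' deposited table. Of the neutrophil list, S100a8 stood at 96.7 FPKM in LID against 2.38 in SID and 9.15 in HID. S100a8 and S100a9 were called higher in both diets than in SID, beside 1.57% of all tested genes in LID and 2.82% in HID. Camp, Ngp and Retnlg were called higher in LID too. Their SID levels were 0.054, 0.0119 and 0.251 FPKM, and they averaged 1 FPKM or more only through LID (5.39, 3.50 and 5.64 FPKM). The filter on level thus partly fixed which markers of this list were tested, so their calls are not counted here. Of 6 pan-leukocyte markers, only Cd53 was called against SID. It rose in both diets, from 2.01 FPKM to 3.78 in HID and 4.48 in LID. Lcp1 went the other way in both diets, at 18.2 FPKM in SID, 14.7 in HID and 16.5 in LID (not called). Ptprc, the common leukocyte antigen, stood at 0.815 FPKM in SID, 1.18 in HID and 1.28 in LID, with no call.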
